A study of Homo sapiens with 6 samples.

Results

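Genes of a stretch of chromosome 18 and a stretch of chromosome 13 were examined in the HEK293 transcriptome after CRISPR/Cas9 disruption of ZNF146 or ZNF507. The members are the protein-coding and long noncoding RNA (lncRNA) genes that start at 20 to 40 Mb of chromosome 18 or at 70 to 80 Mb of chromosome 13 (GRCh37) and had 10 or more counts summed over the 6 libraries. There are 124 such genes of 57773 in the count table. Chromosome 18 holds 92 of them and chromosome 13 holds 32, and 181 protein-coding and lncRNA genes start in these ranges at any count. These ranges were chosen on measured values, the median log2 fold changes of windows of 10 Mb in sgZNF146 against empty vector (EV), so that every value of that contrast is given as a description without a test. The contrast of sgZNF507 against EV was not used by the rule, and it is the one tested, although both contrasts share the EV libraries.

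HEK293 is an established aneuploid line from human embryonic kidney. Cells were transfected transiently with Cas9 and guide plasmids (PX459) against ZNF146 (sgZNF146) or ZNF507 (sgZNF507), with 4 guides for each gene, or with the same amount of plasmid without a guide (EV). All cells were then selected with puromycin for 36 hours and grown out for 2 weeks in all, and no cloning step is described. Each group holds 2 libraries, labelled as biological duplicates with nothing to tie them to a day or passage, so that p-values measure the spread between these samples only.

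The 6 libraries held 22724439 to 28524025 counts. ZNF507 had 72.0 and 75.5 CPM (read counts scaled to library size) in EV against 47.2 and 48.7 in the sgZNF507 libraries. ZNF146 had 115 and 105 CPM in EV against 99.2 and 103 in sgZNF146 and 88.4 and 101 in sgZNF507, so that its mRNA level does not set the sgZNF146 libraries apart. Markers of HEK293 cells were present in every library (VIM at 1012 to 1147 CPM and NEFM at 66.3 to 77.5), PTPRC and ALB had at most 5 and 6 counts, and HBB and UMOD had 0. COL1A1, fixed as a fibroblast marker, was also present at 58.9 to 73.0 CPM, and its part in the results was not tested.

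Both stretches carry genes of general use to a dividing cell and a few of restricted use. On chromosome 18, the desmocollins and desmogleins form a cluster of desmosomal cadherins, which hold epithelial cells together, and the classical cadherin CDH2 (N-cadherin) lies apart from them. Regulators of transcription, ubiquitin ligases, vesicle traffic proteins and microtubule proteins lie around them. The chromosome 13 stretch is poor in genes, and holds MYCBP2 (a large ubiquitin ligase of neurons), the exosome ribonuclease DIS3 and the transcription factors KLF5, KLF12 and POU4F1. Genes in such neighborhoods share a chromosome but mostly not a function. Exceptions include the cadherin cluster and, also on chromosome 18, the neighboring zinc finger genes ZNF397, ZSCAN30, ZNF24 and ZNF396.

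The guides are shown first, because positions on these chromosomes are what the members share. Each listed target sequence was placed on chromosome 19 of GRCh37 in the reading followed by NGG, the motif (PAM) that Cas9 requires, and was completed there to 20 bases. All 4 guides against ZNF146 then lie in its coding exons, for example guide 3 at chr19:36727356-36727375 and guide 4 at chr19:36727736-36727755, both on the plus strand. The 20 bases of guide 2 also occur in a coding exon of ZNF260 (chr19:37005172-37005191, minus strand), where they are not followed by NGG. All 4 near-matches of these guides on chromosomes 18 and 13 with at most 3 mismatches that are followed by NGG are given under the guide, 5′ to 3′, with capitals for the bases that differ within each pair.

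ZNF146 guide 4: gaGtgtggaaaaAccttcag
chr18:32833799-32833818, minus strand: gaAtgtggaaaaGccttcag
ZNF146 guide 3: gccagcagagaaTttAcaGt
chr18:36622506-36622525, minus strand: gccagcagagaaAttCcaCt
ZNF146 guide 3: gCcagcagAGaatttacagt
chr18:3273673-3273692, plus strand: gTcagcagTTaatttacagt
ZNF146 guide 1: gaaaatgctCatgCtcagTg
chr13:111163761-111163780, minus strand: gaaaatgctGatgAtcagGg

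The site of guide 4 differs at 2 bases, is followed by ggg and lies in a coding exon of ZSCAN30, a zinc finger gene and itself a member. The same bases lie within the span of ZNF397 on the other strand. Guide 3 has 2 sites with 3 differing bases each, one between annotated genes within the 20 to 40 Mb range and one within MYL12B, outside that range. The site of guide 1 lies in COL4A2, far outside the 70 to 80 Mb range. Over 24 chromosomes the ZNF146 guides had 9 such sites with at most 2 mismatches, their 4 targets included, of which 1 was on chromosome 18 and 0 on chromosome 13. The ZNF507 guides had 7, with 0 on either chromosome. With at most 3 mismatches, the counts were 69 for ZNF146 (3 on chromosome 18 and 1 on chromosome 13) and 43 for ZNF507 (3 and 2). A match of letters is a description, and cutting at any of these sites was not tested.

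Of the 124 members, 100 had enough counts for the fit (74 on chromosome 18 and 26 on chromosome 13), and 70 of these are protein-coding and 30 are lncRNAs. The 24 that did not pass had 10 to 49 counts over the 6 libraries. In sgZNF146, the tested members were lower than in EV at the median of both stretches. The median log2 fold change was -0.16 on chromosome 18 (interquartile range -0.24 to -0.03), which is 89.5% of the EV level, and -0.20 on chromosome 13 (-0.24 to -0.12), which is 87.1%. Over all 22010 genes tested the median was -0.00126. In bulk RNA, fewer cells expressing a gene and less of its RNA per cell cannot be told apart.

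Both sgZNF146 libraries lay below both EV libraries in 51 of the 100 members, 35 of 74 on chromosome 18 and 16 of 26 on chromosome 13, against 14.6% of all genes tested. Both lay above both EV libraries in 6 members, all on chromosome 18, against 14.0% of all genes. The groups overlapped in the other 43. These counts come from the contrast that chose the members, and nothing is read from them.

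Single libraries are described for the members with a mean of 50 or more counts. The choice of the stretches used the EV and sgZNF146 libraries, so their levels here are no independent support. On chromosome 18 (53 members), the median member stood at 101.1% and 98.9% of its EV mean in the EV libraries, at 89.1% and 90.0% in sgZNF146 and at 101.2% and 101.6% in sgZNF507. On chromosome 13 (20 members), it stood at 100.7% and 99.3% in EV, 87.8% and 89.1% in sgZNF146, and 92.9% and 103.6% in sgZNF507. Both sgZNF146 libraries are low in both stretches, whereas the sgZNF507 libraries lie on opposite sides of EV on chromosome 13. The summed level of the chromosome 18 members was 2913 and 2851 CPM in EV, 2535 and 2596 in sgZNF146, and 2831 and 2915 in sgZNF507. For chromosome 13 these sums were 1671 and 1646 CPM in EV, 1432 and 1462 in sgZNF146, and 1576 and 1678 in sgZNF507. Over all 13905 genes with 50 or more counts, the library medians were 99.3% to 100.2% of EV.

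**Figure D1:**
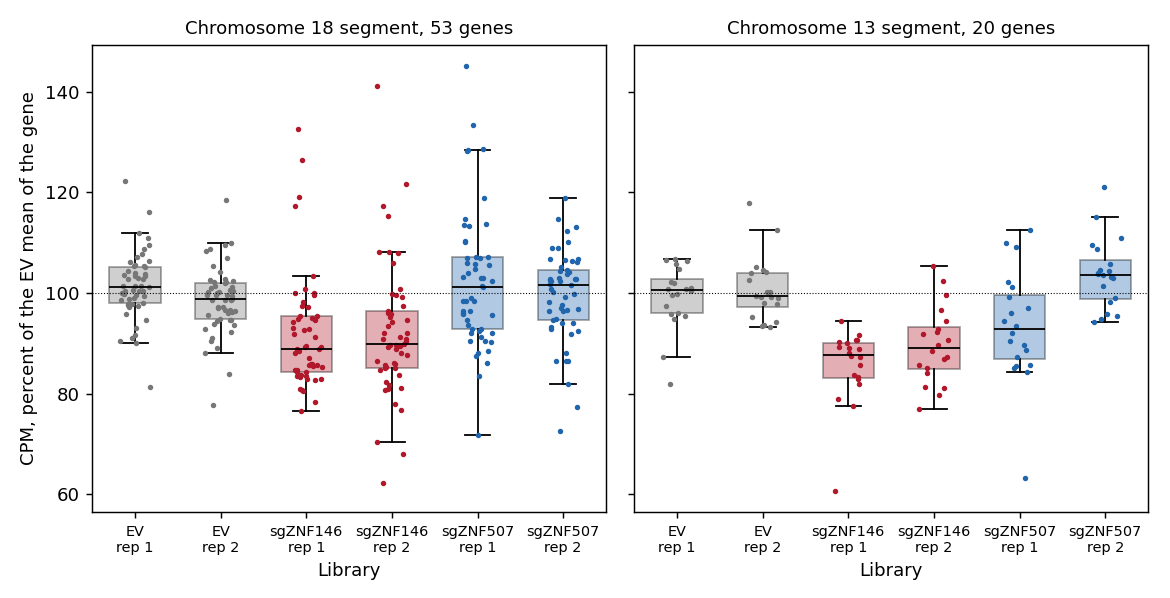
CPM of each member with a mean of 50 or more counts as a percentage of its EV mean (vertical axis) in each of the 6 libraries (horizontal axis); points are genes, boxes the quartiles with the median, and whiskers reach the farthest gene within 1.5 times the box height. The sgZNF146 boxes lie below the dotted line at 100% in both panels, and sgZNF507 replicate 1 is also low on chromosome 13, with a median of 92.9%.

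Among 274 windows of 10 Mb with at least 20 tested protein-coding or lncRNA genes, that of chromosome 13 at 70 to 80 Mb had the lowest median in sgZNF146 against EV (-0.20, 16 of 26 genes below both EV libraries). The window of chromosome 18 at 30 to 40 Mb was at rank 3 (-0.19, 20 of 32 genes), and that at 20 to 30 Mb at rank 7 (-0.10, 15 of 42 genes). The intervening ranks include windows of the end of chromosome 7, with medians of -0.19 to -0.16. In sgZNF507 against EV the same windows of chromosome 13 and chromosome 18 stood at ranks 112, 241 and 232 from the lowest. The rest of chromosome 18 (236 genes) had a median of 0.01 in sgZNF146 and the rest of chromosome 13 (278 genes) a median of 0.05.

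The edges of the lower stretches were described with a run, the set of at least 5 consecutive genes with a mean of 50 or more counts whose mean log2 fold change stood farthest from the rest of its chromosome. On chromosome 18 this run was narrower than the 20 to 40 Mb range. It began at DSC3 (start 28569331), a desmocollin, and ended with the lncRNA KC6 (39045747 to 39212149), a span of 10.6 Mb or 13.6% of the chromosome. It held 32 of the 204 genes, with a mean log2 fold change of -0.21 (86.3% of EV) and 31 of 32 values below 0. Outside it, the mean was 0.00 and 87 of 172 genes were below 0.

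The spacing of genes around the chromosome 18 run limits how finely its edges are known, and so does the spread between libraries. DSC3 had 85.3 and 89.5 CPM in EV, 70.6 and 79.5 in sgZNF146, and 73.0 and 85.8 in sgZNF507 (log2 fold change -0.22 in sgZNF146). CDH2, the nearest gene before it, had 157 and 171 CPM in EV, 146 and 163 in sgZNF146, and 154 and 171 in sgZNF507 (-0.08). EV and sgZNF146 overlap for CDH2 and not for DSC3, and no tested protein-coding or lncRNA gene with 50 or more counts starts in the 2.81 Mb between the pair. At the other edge, KC6 had 6.87 and 6.69 CPM in EV, 5.71 and 6.24 in sgZNF146, and 6.29 and 5.25 in sgZNF507 (-0.18). PIK3C3, the catalytic subunit of a phosphoinositide kinase in autophagy, had 27.0 and 27.4 CPM in EV, 26.7 and 29.5 in sgZNF146, and 26.1 and 30.0 in sgZNF507 (0.05). Only 0.323 Mb separate KC6 from PIK3C3, but the edges also moved between libraries. Compared alone with the EV mean, sgZNF146 replicate 1 gave a start at CDH2, and replicate 2 an end at MIR924HG (start 36.8 Mb).

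The run was picked on these same sgZNF146 values, so a difference between members inside and outside it follows from that choice. Of all 13905 genes with 50 or more counts, 1957 lay below both EV libraries in sgZNF146 and 1789 above. The 32 members of the run with 50 or more counts had a median of -0.20 (interquartile range -0.26 to -0.17). Of these, 25 lay below both EV libraries and 0 above. The 19 such members before the run had a median of -0.04, with 4 below both EV libraries and 1 above. CABLES1, TMEM241, OSBPL1A and SS18 are those 4, named after their values were seen. The 2-mismatch site of guide 4 lies inside the run, with 16 genes starting before it (median -0.19) and 16 after it (median -0.23). ZSCAN30, which holds the site, had 46.9 and 49.4 CPM in EV, 45.4 and 43.9 in sgZNF146, and 47.7 and 48.3 in sgZNF507. The log2 fold change of ZSCAN30, -0.11 in sgZNF146, is smaller in size than the median of the run.

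**Figure D2:**
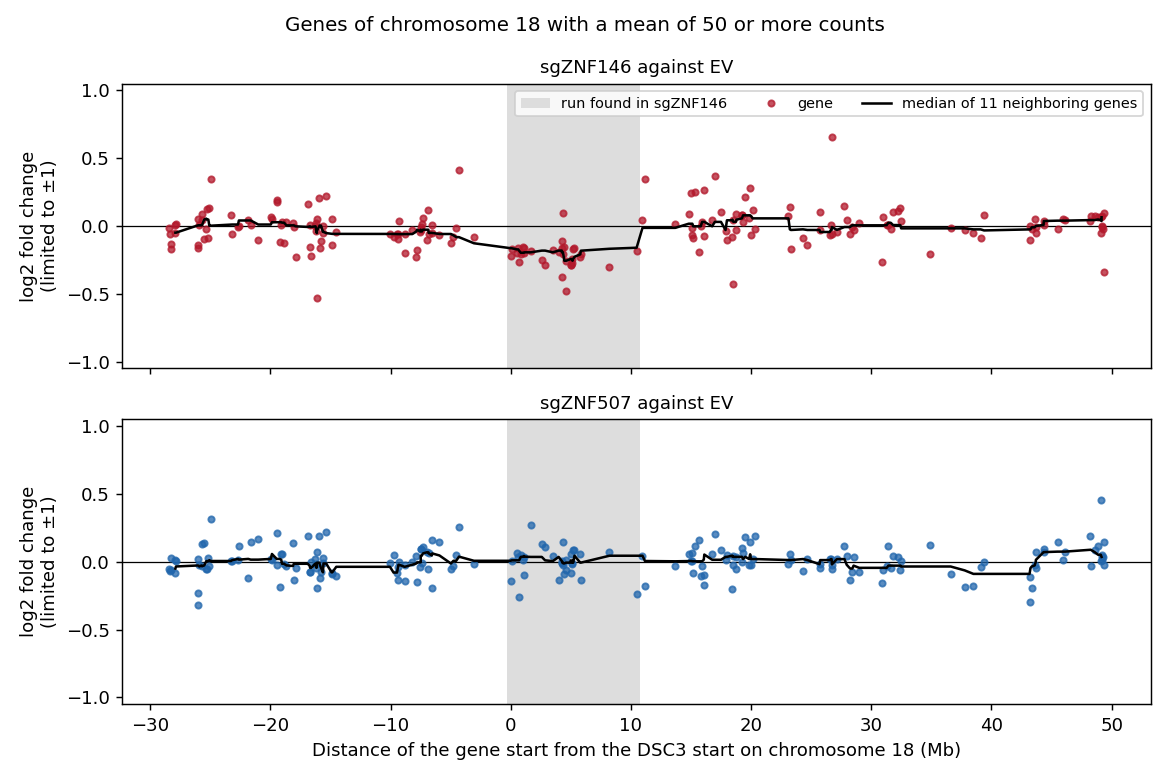
Log2 fold change (vertical axis, limited to 1 either way) of each tested gene of chromosome 18 with a mean of 50 or more counts against the distance of its start from that of DSC3 in Mb (horizontal axis), for sgZNF146 and sgZNF507 against EV; the line is the median of neighboring genes and the grey band the run found in sgZNF146. In the band, 31 of 32 genes are below 0 in sgZNF146 and 14 of 32 in sgZNF507.

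On chromosome 13 the run was wider than the 70 to 80 Mb range. It began at PCDH9 (start 66876966), a protocadherin, and ended at the lncRNA SOX21-AS1 (start 95355708), a span of 28.6 Mb or 24.8% of the chromosome. It held 30 of the 229 genes, all 30 of them below 0, with a mean of -0.19 (87.4% of EV). The 199 genes outside had a mean of 0.05 (103.7% of EV), with 52 below 0. Members make up 20 of the 30 genes. The other 10 genes of the run, outside the range of the rule, had a median of -0.20. Of these, 9 lay below both EV libraries, against 14.6% of all genes tested. The run took them in on these same sgZNF146 values, so their low level follows from that choice. These 10 genes are PCDH9, NDFIP2, SPRY2, SLITRK5, the microRNA host gene MIR17HG, the glypicans GPC5 and GPC6, TGDS, GPR180 and SOX21-AS1.

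The genes at the edges of the chromosome 13 run were farther apart at its start than at its end. PCDH9 had 89.7 and 89.2 CPM in EV, 69.1 and 73.8 in sgZNF146, and 77.9 and 85.3 in sgZNF507 (log2 fold change -0.33 in sgZNF146). The nearest gene before it, ENSG00000197991, lies 4.87 Mb away and had 7.59 and 6.47 CPM in EV, 7.68 and 6.68 in sgZNF146, and 7.51 and 5.87 in sgZNF507 (0.03). SOX21-AS1 had 2.45 and 2.03 CPM in EV, 2.17 and 1.67 in sgZNF146, and 3.17 and 2.17 in sgZNF507 (-0.22 in sgZNF146). Its EV and sgZNF146 libraries overlapped, on a mean of 58.3 counts, so that this edge rests on a gene of low count. The transporter gene ABCC4 follows at 0.216 Mb with 0.10. PCDH9 is also the last gene of any count class before the 70 Mb limit that was tested, and MZT1 (start 73282505, -0.31) is the first inside it. At the 80 Mb limit, RBM26-AS1 (-0.08) is the last gene inside and NDFIP2 (-0.14) the first outside. On chromosome 18, GATA6 (-0.06) and ENSG00000265943 (-0.16) stand on either side of the 20 Mb limit, and LINC00907 (0.35) and SETBP1-DT (-0.07) on either side of the 40 Mb limit.

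With each sgZNF146 library compared alone with the EV mean, the chromosome 18 run went from CDH2 to KC6 in replicate 1 and from DSC3 to MIR924HG in replicate 2. The chromosome 13 run went from PCDH9 to GPR180 in replicate 1 and from ENSG00000197991 to DNAJC3-DT in replicate 2. In sgZNF507 against EV, the same procedure placed the runs elsewhere. On chromosome 18 it gave 8 genes from DSEL to CYB5A with a mean of -0.14, and on chromosome 13 it gave 39 genes from GPC6 to COL4A2 with a mean of 0.06. Since the procedure returns a run for any chromosome, these carry no test.

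**Figure D3:**
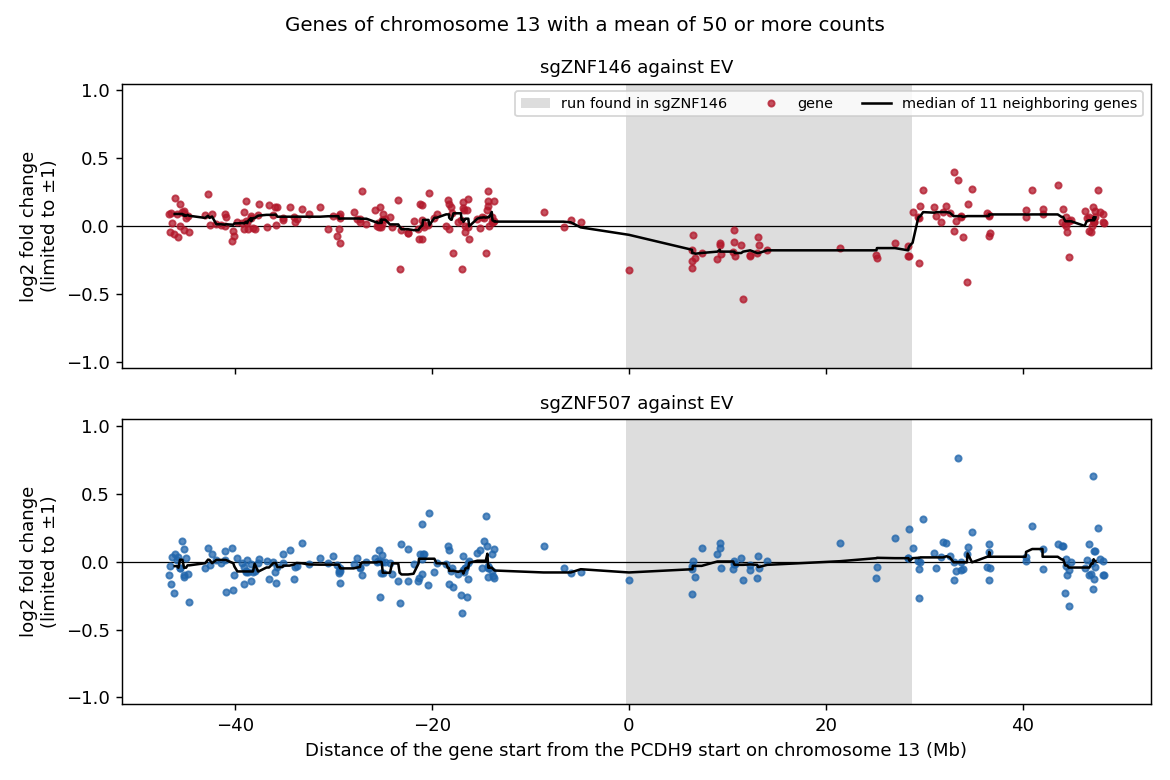
Log2 fold change (vertical axis, limited to 1 either way) of each tested gene of chromosome 13 with a mean of 50 or more counts against the distance of its start from that of PCDH9 in Mb (horizontal axis), for sgZNF146 and sgZNF507 against EV, with the line and band as for chromosome 18. All 30 genes of the band lie below 0 in sgZNF146, and the genes outside have a mean of 0.05.

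In sgZNF507 against EV, the contrast the rule did not use, 0 of the 100 tested members had an adjusted p under 0.05 (quasi-likelihood test of edgeR, Benjamini-Hochberg over all genes), where 0.182% of all genes tested passed. DESeq2 also called 0, with all 6 libraries and with the 4 libraries compared. In edgeR, 2 of the 100 members had an unadjusted p under 0.05, against 3.39% of all genes tested, so their share was not above the background. They are MAPRE2 and the lncRNA ENSG00000267707. MAPRE2, a protein of growing microtubule ends, had 127 and 126 CPM in EV against 114 and 116 in the sgZNF507 libraries, for a log2 difference of -0.13 with an SE of 0.06 (adjusted p = 1.00 in edgeR). ENSG00000267707 had 0.60 and 0.98 CPM in EV against 1.30 and 1.45 (0.79, SE 0.34, adjusted p = 1.00 in edgeR). Neither passed once all genes were accounted for.

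The median log2 fold change in sgZNF507 was 0.02 on chromosome 18 (interquartile range -0.07 to 0.11), with 33 of 74 members below 0, and -0.02 on chromosome 13 (-0.06 to 0.06), with 14 of 26 below 0. Both sgZNF507 libraries lay below both EV libraries in 16 of the 100 members, against 15.3% of all genes tested, and above both in 14, against 14.0%. Both shares are near the background. A test that finds no call does not show that the levels were alike, and for the 10 members of each stretch with the highest CPM the standard error of the log2 fold change reached 0.09.

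The most abundant members of chromosome 18, by mean CPM, are ZNF24, DSG2, CDH2, RPRD1A, TPGS2, MAPRE2, SLC39A6, ELP2, RNF138 and SS18. In sgZNF146, the contrast that chose them, their means were 81.9% to 94.5% of EV. There, 9 of the 10 lay below both EV libraries (14.6% of all genes tested), CDH2 being the exception. In sgZNF507 they were 91.2% to 104.4% of EV. Of the 10, 3 were below both EV libraries (15.3% of all genes tested) and 1 above (14.0%). RPRD1A, which binds the tail of RNA polymerase II, had 173 and 163 CPM in EV, 139 and 136 in sgZNF146, and 159 and 158 in sgZNF507. SLC39A6, a zinc transporter of the cell surface, had 125 and 114 CPM in EV, 101 and 97.1 in sgZNF146, and 118 and 119 in sgZNF507. ELP2, a subunit of the Elongator complex that modifies transfer RNA, had 118 and 110 CPM in EV, 94.4 and 97.9 in sgZNF146, and 110 and 117 in sgZNF507. In RPRD1A, sgZNF507 was also below EV, whereas in SLC39A6 and ELP2 the ranges of EV and sgZNF507 overlapped.

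Among the most abundant members of chromosome 13 are MYCBP2, RBM26, TBC1D4, KCTD12, DIS3, SLAIN1, POU4F1, KLF12 and OBI1. All of these lay below both EV libraries in sgZNF146 (14.6% of all genes tested), at 84.6% to 90.8% of EV. In sgZNF507 they were at 91.9% to 107.2%, with 1 (RBM26) below both EV libraries (15.3% of all genes tested). MYCBP2 had 398 and 391 CPM in EV, 328 and 349 in sgZNF146, and 372 and 406 in sgZNF507. TBC1D4, a Rab-inactivating protein of glucose transporter traffic, had 168 and 148 CPM in EV, 139 and 129 in sgZNF146, and 178 and 152 in sgZNF507. RBM26, an RNA-binding protein, had 212 and 209 CPM in EV, 184 and 183 in sgZNF146, and 180 and 207 in sgZNF507. The sgZNF146 libraries are the lowest in MYCBP2 and TBC1D4, but in RBM26 the first sgZNF507 library is lower still. Per kilobase of exon, EV levels of tested members reached 32.5 CPM on chromosome 18 (SLC39A6) and 25.7 on chromosome 13 (KCTD12), with medians of 3.72 and 7.87.

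**Figure D4:**
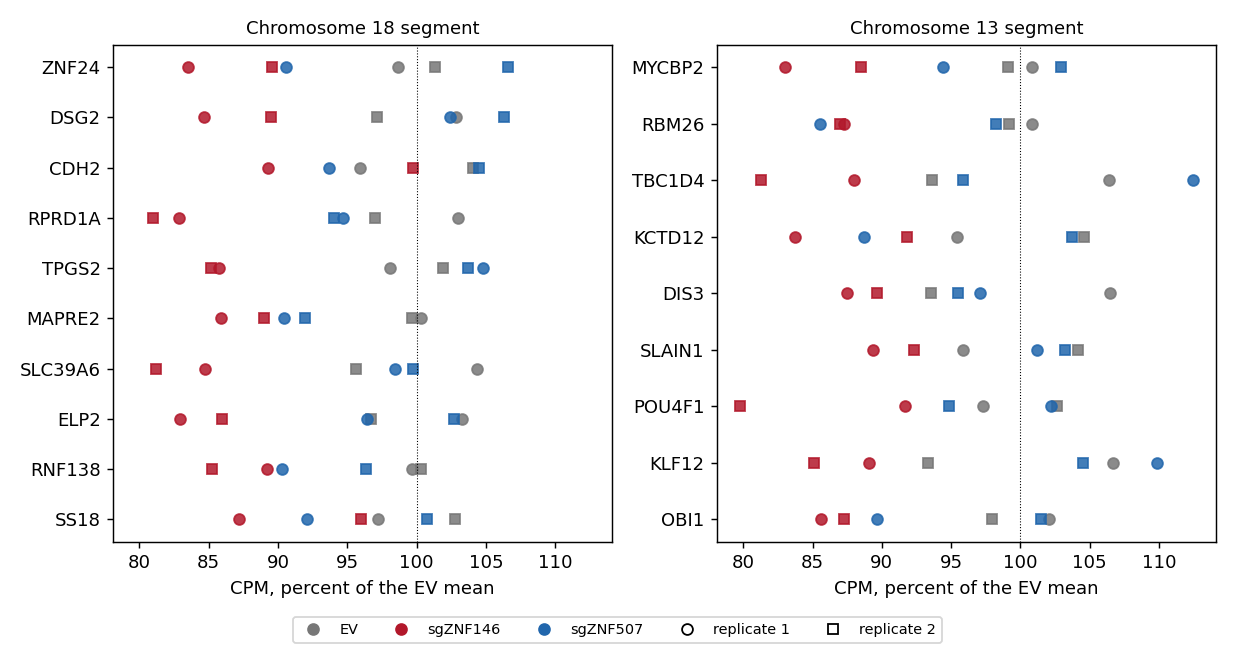
CPM as a percentage of the EV mean (horizontal axis) in each library for members of each stretch with the highest mean CPM (rows); color gives the group and marker shape the replicate. Both sgZNF146 markers lie left of both EV markers in every row shown but that of CDH2.

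Grouped by function, members were lower in sgZNF146 across lists of unrelated roles, with list medians of -0.22 to -0.09 beside -0.00126 over all genes. Low list medians follow from the choice of the stretches on this contrast, and nothing is read from them. Beside the counts of each list, 14.6% of all genes tested had both sgZNF146 libraries below both EV libraries, and 14.0% had both above. In sgZNF507 the list medians ran from -0.05 to 0.05 and 0 members of any list passed the test. Of the 17 tested members in the transcription and chromatin list, 16 were below 0 in sgZNF146 and 10 lay below both EV libraries. KLF5, a zinc finger factor of proliferating epithelia, had 33.4 and 32.1 CPM in EV, 29.1 and 26.6 in sgZNF146, and 28.1 and 32.4 in sgZNF507. POU4F1, a homeodomain factor of sensory neurons, had 81.1 and 85.5 CPM in EV, 76.3 and 66.4 in sgZNF146, and 85.2 and 79.0 in sgZNF507. In both genes EV and sgZNF146 did not overlap. The member above 0 was ZNF396 (0.09), at 4.22 and 4.85 CPM in EV against 5.32 and 4.37 in sgZNF146.

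All 8 members of the list of microtubules and cell division were below both EV libraries in sgZNF146, against 14.6% of all genes tested. This is the contrast that chose the members, so the count is a description. The list median was -0.22, with a range from -0.31 (MZT1) to -0.06 (PIBF1). MZT1, a small protein of the gamma-tubulin ring complex, had 30.1 and 30.2 CPM in EV, 23.4 and 25.4 in sgZNF146, and 19.1 and 31.9 in sgZNF507. BORA, an activator of Aurora A kinase, had 27.5 and 27.2 CPM in EV, 22.4 and 23.4 in sgZNF146, and 25.2 and 28.3 in sgZNF507. TPGS2, a subunit of a tubulin polyglutamylase, had 155 and 161 CPM in EV, 136 and 135 in sgZNF146, and 166 and 164 in sgZNF507. The sgZNF507 libraries differ most in MZT1, where replicate 1 is the lowest of the 6 and replicate 2 the highest. Without sgZNF507 replicate 2, MZT1 was the one member called in sgZNF507 against EV (log2 fold change -0.65, adjusted p = 0.0338 in edgeR).

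In the list of ubiquitin and proteasome genes, 8 of 8 tested members were below 0 in sgZNF146 (median -0.18) and 5 were below both EV libraries. RNF138, a ubiquitin ligase of DNA break repair, had 113 and 113 CPM in EV, 101 and 96.2 in sgZNF146, and 102 and 109 in sgZNF507. OBI1, a ubiquitin ligase that acts at replication origins, had 60.9 and 58.4 CPM in EV, 51.1 and 52.0 in sgZNF146, and 53.5 and 60.5 in sgZNF507. For RNA processing and translation control, 7 of 7 were below 0 (median -0.20), with 4 below both EV libraries. Among them, DIS3 had 164 and 144 CPM in EV, 135 and 138 in sgZNF146, and 149 and 147 in sgZNF507. RIOK3 (-0.04) and IMPACT (-0.05), which lie before the chromosome 18 run, overlapped with EV. CELF4 (-0.60), at a mean of 1.42 CPM, also overlapped with EV.

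In membrane traffic and lysosome, 7 of 8 tested members were below 0 in sgZNF146, the median was -0.09 and 5 were below both EV libraries. Its members split by place. NPC1, the lysosomal cholesterol exporter, lies before the chromosome 18 run and had 87.1 and 85.9 CPM in EV, 80.4 and 91.6 in sgZNF146, and 90.0 and 94.2 in sgZNF507. TRAPPC8, of a vesicle tethering complex, lies in the run and had 92.3 and 81.3 CPM in EV, 72.7 and 78.1 in sgZNF146, and 89.3 and 90.4 in sgZNF507. The sgZNF146 libraries lie on either side of EV for NPC1 and below EV for TRAPPC8. In glycosylation and small-molecule metabolism, 6 of 6 tested members were below 0 (median -0.21) and 2 were below both EV libraries, SLC39A6 and GALNT1. GALNT1, which starts mucin-type O-glycans, had 88.5 and 88.5 CPM in EV, 73.3 and 75.0 in sgZNF146, and 85.0 and 93.2 in sgZNF507.

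In the list of cell adhesion and matrix, 5 of 7 tested members were below 0 in sgZNF146 (median -0.17), with 4 below both EV libraries and 1 above. The desmosomal genes stood on different sides of EV. DSG2, the desmoglein of simple epithelia, had 179 and 169 CPM in EV, 147 and 155 in sgZNF146, and 178 and 185 in sgZNF507. DSC2 had 49.9 and 47.3 CPM in EV, 44.6 and 41.7 in sgZNF146, and 52.1 and 45.7 in sgZNF507. DSG3, the desmoglein of stratified epithelia, had 1.00 and 0.80 CPM in EV, 1.58 and 1.07 in sgZNF146, and 0.82 and 1.38 in sgZNF507. DSG2, DSC2 and DSC3 were below EV in sgZNF146 while DSG3, the least abundant, was above. LAMA3, a laminin chain before the run, had 48.7 and 50.9 CPM in EV, 49.8 and 53.9 in sgZNF146, and 53.3 and 54.2 in sgZNF507.

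**Figure D5:**
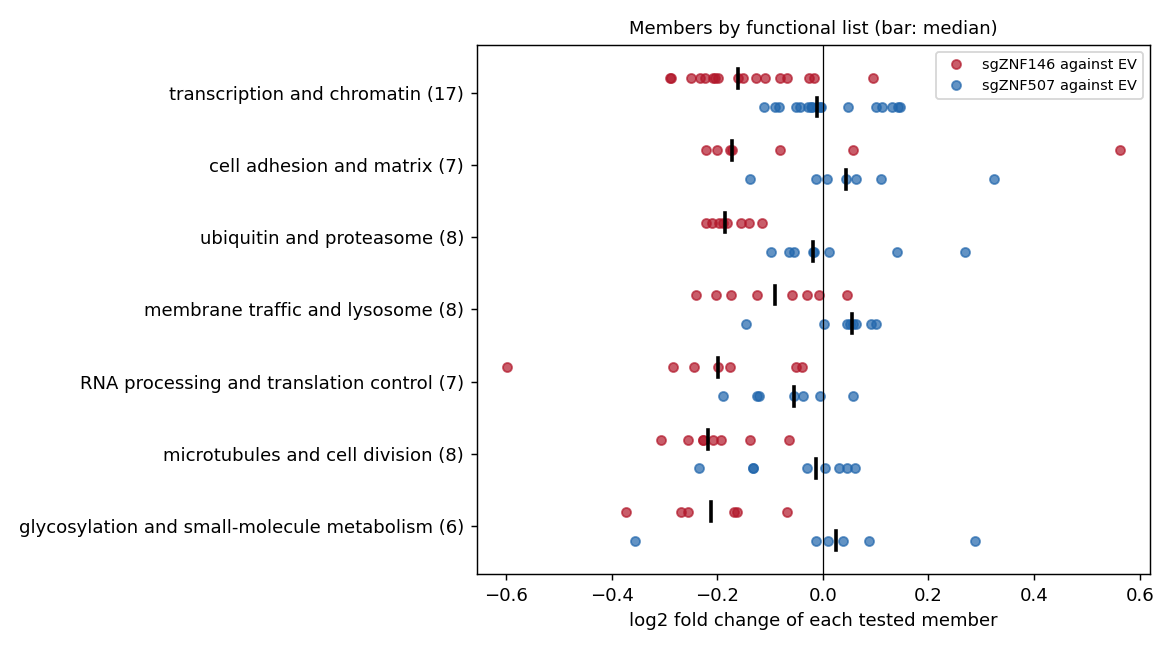
Log2 fold change (horizontal axis) of each tested member by functional list (rows, number of tested members in parentheses) in sgZNF146 (upper points) and sgZNF507 (lower points) against EV; black bars are list medians. The sgZNF146 medians lie at -0.22 to -0.09, left of the sgZNF507 medians at -0.05 to 0.05.

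The extreme members, chosen on their values in sgZNF146 among those with at least 1 CPM, were mostly of low abundance. On chromosome 18 the lowest were CELF4 (-0.60), ENSG00000265750 (-0.52) and ENSG00000266965 (-0.48), and the highest DSG3 (0.56), PCAT18 (0.41) and LINC00907 (0.35), all under 3 CPM on average. On chromosome 13 the lowest were EDNRB (-0.54), MZT1 (-0.31) and ENSG00000261553 (-0.25), and ENSG00000233379 (0.18) and PIBF1 (-0.06) were among the highest. EDNRB, the endothelin receptor of neural crest cells, had 4.26 and 3.80 CPM in EV, 2.44 and 3.10 in sgZNF146, and 3.52 and 3.80 in sgZNF507. Its groups of EV and sgZNF146 did not overlap, on 3.49 CPM over all libraries.

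Members with few counts scattered more widely. On chromosome 13, 20 of 20 members with a mean of 50 or more counts were below 0 in sgZNF146, and 3 of 6 with fewer counts were. The 23 tested lncRNAs of chromosome 18 had a median of -0.16, and the 7 of chromosome 13 had a median of -0.08. Exons of the members were poorer in GC (medians of 43.5% and 40.4%) than those of all genes tested (48.1%). Among 5257 other genes with exon GC below the median of the members, the median in sgZNF146 was -0.00 and 14.9% lay below both EV libraries. Another annotated gene overlaps 94 of the 124 members, and for 43 the overlap is on the same strand, so that some counts may include reads of a neighbor. Whether the counting used strand is not stated in the sources used here.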

How the data were processed

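RNA from 6 HEK293 cultures was depleted of ribosomal RNA and sequenced as stranded paired-end libraries. The authors clipped adapters, removed ribosomal reads with Bowtie, aligned with TopHat2 to hg19 (GRCh37) using Ensembl gene models and counted reads per gene with featureCounts. The deposited values are raw counts, one column per library. Library totals were 22724439 to 28524025, which limits genes of low count most.

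Here, biotypes and positions came from GENCODE 44 lifted to GRCh37, which matched 55538 of 57773 identifiers. edgeR 4.0.16 in R 4.3.3 was run on all 6 libraries (filterByExpr, TMM, glmQLFit and glmQLFTest with group as the only term), with Benjamini-Hochberg adjustment over 22010 genes and a threshold of 0.05. Standard errors are approximate, the log2 fold change divided by the square root of F. DESeq2 1.42.0 was an alternative. The run was found on log2 fold changes limited to 1 either way. The scripts were tested on simulated data. Figures were drawn with matplotlib 3.10.9.

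The members and gene lists were chosen with earlier results of these data known. Named members are the 10 of highest mean CPM in each stretch, members of the 7 functional lists with at least 5 CPM as examples, the genes at each edge, and the 3 lowest and 3 highest in sgZNF146 with at least 1 CPM. Genes named outside this rule are marked as such or lie on the edges. Alternatives were another scaling, filter, tool or threshold, the replicate block, subsets of members, and each library left out. The authors' binding data were not used here. Some genes that the rule names are not reported here.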

Additional observations from a re-analysis of the deposited data

How the results depend on the processing

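In sgZNF146 against EV, the median log2 fold changes of both stretches stayed below 0 under every alternative run, between -0.20 and -0.14 on chromosome 18 and between -0.21 and -0.16 on chromosome 13 with each library left out. With exon GC content and length regressed out, an alternative chosen after seeing the data, they were -0.16 and -0.20. With the replicate number as a block they were also -0.16 and -0.20, and the block left 0 members called in sgZNF507 (0.550% of all genes called). In sgZNF146, the contrast that chose the members and from which no call is read, edgeR passed 0 of 22010 genes without the block (535 at an unadjusted p under 0.05) and 33 with it, 6 of them members. The labels do not say that equal numbers mark a shared day, and deviations of equally numbered libraries correlated across genes with r of 0.191 to 0.242 between groups. The sgZNF507 median of chromosome 18, at 0.024, changed sign without EV replicate 2 (-0.0077), with a range of -0.0077 to 0.055 over left-out libraries. It was 0.029 with DESeq2 size factors, 0.030 with upper quartile scaling, 0.017 without a filter, 0.015 with at least 10 counts in every library, 0.012 with 4 libraries, 0.011 for protein-coding members and for members with at least 100 counts, 0.019 as a ratio of CPM plus 0.5, and 0.040 with GC content and length regressed out. On chromosome 13 this median ranged from -0.086 to 0.054 over left-out libraries. Members called in sgZNF507 numbered 0 to 1 over left-out libraries, MZT1 being called without sgZNF507 replicate 2, where the lone library of its group is assumed to vary like the others. The chromosome 18 run ended at 36.8 Mb with a minimum of 200 counts in place of 39.0 Mb. Over left-out libraries its start ranged from 25.5 to 28.6 Mb with its end at 39.0 Mb, and the chromosome 13 run began at 62.0 to 66.9 Mb and ended at 95.3 to 96.3 Mb. The cause of these shifts was not tested.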
